A study of Mus musculus with 60 samples.

Results

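Striatal gene expression was compared between mice given tianeptine and mice given imipramine, both killed 2 h after the injection. The comparison rests on 6 arrays, 3 per drug, of the 60 arrays in the series. They were chosen by their labels for drug and time, and all 45281 probes were compared. The labels give 5 conditions at 4 times with 3 arrays each: tianeptine, imipramine, fluoxetine (20 mg/kg), saline and naive. The other arrays entered the fit to estimate the spread. All mice were male C57BL/6J aged 8 to 10 weeks, with no genetic change. The tianeptine mice received 20 mg/kg and the imipramine mice 10 mg/kg, each as 1 intraperitoneal injection in saline, so that drug and dose cannot be told apart. Mice injected with saline alone and naive mice, which were not injected, were killed at the same time and are given as background. Each array held RNA of 2 mice mixed in equal parts, so that the spread between arrays is a spread between pools. The tissue was the rostral caudate putamen with the nucleus accumbens.

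Both drugs are tricyclic antidepressants. Imipramine, whose tricyclic core carries a basic amine chain, blocks the serotonin and norepinephrine transporters and also histamine and muscarinic receptors. Tianeptine carries an acidic chain, binds these transporters weakly if at all, and activates the mu opioid receptor. Neurons answer strong input with immediate early genes, which are transcribed within minutes through factors that are already present in the cell. Calcium and cyclic AMP act on them through CREB at the cAMP response element, and MAP kinase acts through serum response factor at the CArG box. Their products include transcription factors, such as Fos and Egr2, and proteins of the synapse, such as Arc.

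Values are log2 signals after quantile normalisation, on which the median probe had 7.57, and a difference is tianeptine minus imipramine. Differences come from a model with chip as a random block and can depart slightly from the difference of the group means. Array medians before normalisation were 6.71 to 8.44 for tianeptine and 7.17 to 7.45 for imipramine. Arrays correlated at 0.984 to 0.989 within tianeptine, 0.979 to 0.989 within imipramine and 0.980 to 0.992 between the drugs. The 6 arrays lay on 5 chips, and only replicate 2 of each drug shared a chip. Of 16 medium spiny neuron markers, 15 were brighter than the median probe. So were 12 of 14 cortical neuron and 13 of 14 oligodendrocyte markers, so that this count does not tell tissues apart. The dopamine receptor genes Drd1 and Drd2 averaged 13.14 and 11.82 with tianeptine and 13.07 and 11.89 with imipramine. The files give no detection values, so that signal over background is unknown.

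One tianeptine array carried signal of pituitary hormone genes. Prl, which encodes prolactin, had 8.39, 7.27 and 13.54 on tianeptine replicates 1, 2 and 3 and 7.38, 7.84 and 8.01 on the imipramine arrays. Gh, which encodes growth hormone, had 9.71, 8.36 and 15.01 with tianeptine and 8.32, 9.32 and 9.22 with imipramine. On replicate 3 of tianeptine both were the highest of all 60 arrays, as was Cga, the hormone alpha subunit, at 9.34. Of 8 pituitary genes looked up after these values were seen, 7 had a named probe, and for 1 of them (Cga) the groups did not overlap. The log2 of their summed signal was 10.28 to 15.50 with tianeptine and 10.22 to 10.60 with imipramine. The main results are given with and without that array.

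Of the 45281 probes, 18 passed an adjusted p of 0.05: 14 were higher with tianeptine (0.0309% of all probes) and 4 were lower (0.00883%). The probes represent 17 named genes, 14 higher and 3 lower, and 1 probe without a name (ILMN_1213875). In all 18 the 3 tianeptine arrays lay wholly above or wholly below the 3 imipramine arrays, as they did in 4.54% of all probes upward and 4.18% downward. At an unadjusted p under 0.05, 1532 probes were higher (3.38%) and 1314 lower (2.90%). Without tianeptine replicate 3, 12 probes passed, 10 of them among the 18. All 18 kept their direction there, which groups without overlap nearly ensure, and at least 85.3% of their difference was kept (median 100%). The count was 5 without tianeptine replicate 1, 5 without imipramine replicate 1 and 4 without imipramine replicate 2. Between the 2 arrays that shared a chip, replicate 2 of each drug, the difference was 1.20 for Egr2, 1.76 for Arc, 1.28 for Npas4 and Fos, 0.82 for Amer2 and 0.31 for Stk40, with no test. In bulk RNA a lower level per cell and fewer expressing cells cannot be told apart.

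**Figure D1:**
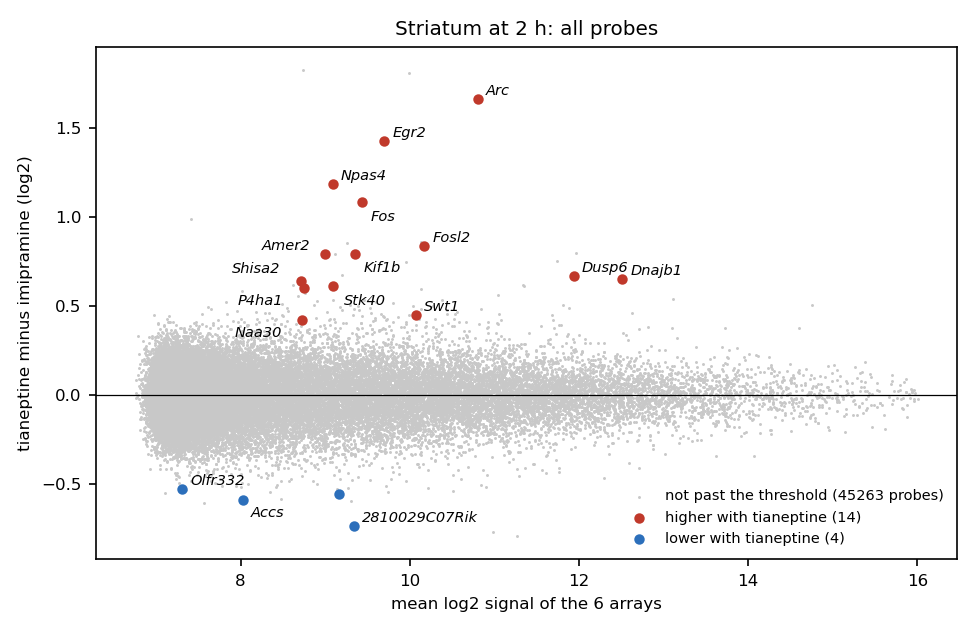
Tianeptine minus imipramine at 2 h (log2, y axis) against the mean log2 signal of the 6 arrays (x axis), 1 point per probe. The 14 higher probes (red) reach 1.66 for Arc, and the 4 lower probes (blue) reach -0.73 for 2810029C07Rik; the unlabelled blue point has no gene name, and the grey points at 1.83 and 1.81 are Prl and Gh.

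The sequences upstream of called genes are shown because several of these genes are known to be switched on together through the elements marked. Each run ends at the base before an annotated transcription start and was taken from RefSeq (GRCm38.p6). They are Egr2 (chr10:67537670-67537869, plus strand, the fourth of 5 listed starts), Npas4 (chr19:4989972-4990171, minus strand), Fos (chr12:85473740-85473889, plus strand), Amer2 (chr14:60377572-60377691, plus strand) and Dnajb1 (chr8:83608055-83608174, plus strand, the first of 2 listed starts). Capitals mark the half-site of the cAMP response element (TGACG on either strand) and, in Egr2 alone, the CArG box.
Egr2: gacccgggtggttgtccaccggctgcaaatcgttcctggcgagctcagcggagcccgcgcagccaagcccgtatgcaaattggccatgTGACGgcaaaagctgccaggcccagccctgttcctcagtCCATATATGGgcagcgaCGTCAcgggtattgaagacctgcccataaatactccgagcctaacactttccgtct
Npas4: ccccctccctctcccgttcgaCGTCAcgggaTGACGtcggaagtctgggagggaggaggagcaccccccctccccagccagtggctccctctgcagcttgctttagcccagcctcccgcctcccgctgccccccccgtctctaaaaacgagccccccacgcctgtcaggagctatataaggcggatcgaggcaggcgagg
Fos: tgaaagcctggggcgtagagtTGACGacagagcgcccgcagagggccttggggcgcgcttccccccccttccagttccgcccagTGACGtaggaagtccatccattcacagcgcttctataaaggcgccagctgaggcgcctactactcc
Amer2: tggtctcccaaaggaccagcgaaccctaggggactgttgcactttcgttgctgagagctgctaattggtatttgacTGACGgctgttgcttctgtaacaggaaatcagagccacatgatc
Dnajb1: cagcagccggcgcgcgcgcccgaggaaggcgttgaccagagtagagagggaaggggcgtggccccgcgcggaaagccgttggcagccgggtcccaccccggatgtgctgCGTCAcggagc

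The 250 bases before each listed start were searched on both strands. Of the 14 higher genes, 13 had a promoter entry, and 7 of these held TGACG (Egr2, Amer2, Npas4, Dnajb1, Fos, Kif1b and Stk40). Of all 27025 genes with an entry, 19.8% did so at 1 or more of their starts. TGACG is contained in the full element TGACGTCA, which none of the 13 held, against 1.8% of all genes. The CArG box was present in Egr2 (73 bases before the start shown) and in 1.6% of all genes. The heat shock element, searched as GAANNTTC and TTCNNGAA, was present in Fosl2 and in Egr2 for 1 of the spellings each (7.7% and 8.1% of all genes), and not in the 250 bases before Dnajb1. The AP-1 site TGANTCA was in none of the 13 and in 7.8% of all genes. A match describes these letters only.

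The transcription factors Egr2, Npas4, Fosl2 and Fos of the immediate early response were higher with tianeptine. Egr2, a zinc finger factor, had 10.55, 10.17 and 10.41 on the tianeptine arrays, 9.11, 8.97 and 8.96 on the imipramine arrays, 9.34, 9.94 and 9.69 after saline and 9.20, 9.18 and 9.01 in naive mice. Every tianeptine array was above every array of these 3 groups, and the imipramine arrays lay within or just below the naive ones. The fluoxetine arrays of 2 h, at 9.79, 10.20 and 10.47, overlapped the tianeptine arrays, so the high level was not particular to tianeptine. The difference was 1.43 ± 0.21 (SE, n = 3 each), a 2.69-fold higher signal (limma, adjusted p = 0.000733). It had the smallest p of all probes and passed without each of the 6 arrays in turn, with differences of 1.29 to 1.57.

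Npas4, an activity-dependent factor found in neurons, had 9.59, 9.66 and 9.75 with tianeptine and 8.42, 8.38 and 8.73 with imipramine, against 8.91, 9.23 and 8.74 after saline. The difference was 1.19 ± 0.19 (limma, adjusted p = 0.00118), with no overlap. It failed the threshold only without imipramine replicate 2, with differences of 1.08 to 1.30 over the 6 arrays left out. A further, dimmer Npas4 probe, at 7.52 with tianeptine and 7.57 with imipramine, differed by -0.03. Fos, a subunit of the AP-1 factor, had 10.07, 9.88 and 9.95 with tianeptine and 9.13, 8.60 and 9.0 with imipramine. The saline arrays, at 8.88, 9.30 and 9.0, overlapped the imipramine arrays and not the tianeptine arrays. The difference was 1.09 ± 0.22 (limma, adjusted p = 0.0341). It passed only when imipramine replicate 3 was the array left out, and ranged from 0.88 to 1.19 over the 6.

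Fosl2, another AP-1 subunit, had 10.80, 10.33 and 10.63 with tianeptine and 9.63, 9.65 and 9.98 with imipramine. The difference was 0.84 ± 0.14 (limma, adjusted p = 0.00314), and 0.73 to 0.96 with 1 array left out. Saline replicate 2, at 10.32, came close to the lowest tianeptine array. Arc, which acts at the synapse on receptor removal, had 11.49, 11.70 and 11.57 with tianeptine and 9.70, 9.94 and 10.41 with imipramine, against 10.16, 10.93 and 10.31 after saline. Its difference of 1.66 ± 0.29 was the largest of the called probes, a 3.17-fold higher signal (limma, adjusted p = 0.00493). Fosl2, Arc and Dnajb1 each failed the threshold without tianeptine replicate 1, imipramine replicate 1 or imipramine replicate 2, and the differences of Arc then lay within 1.57 to 1.84.

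**Figure D2:**
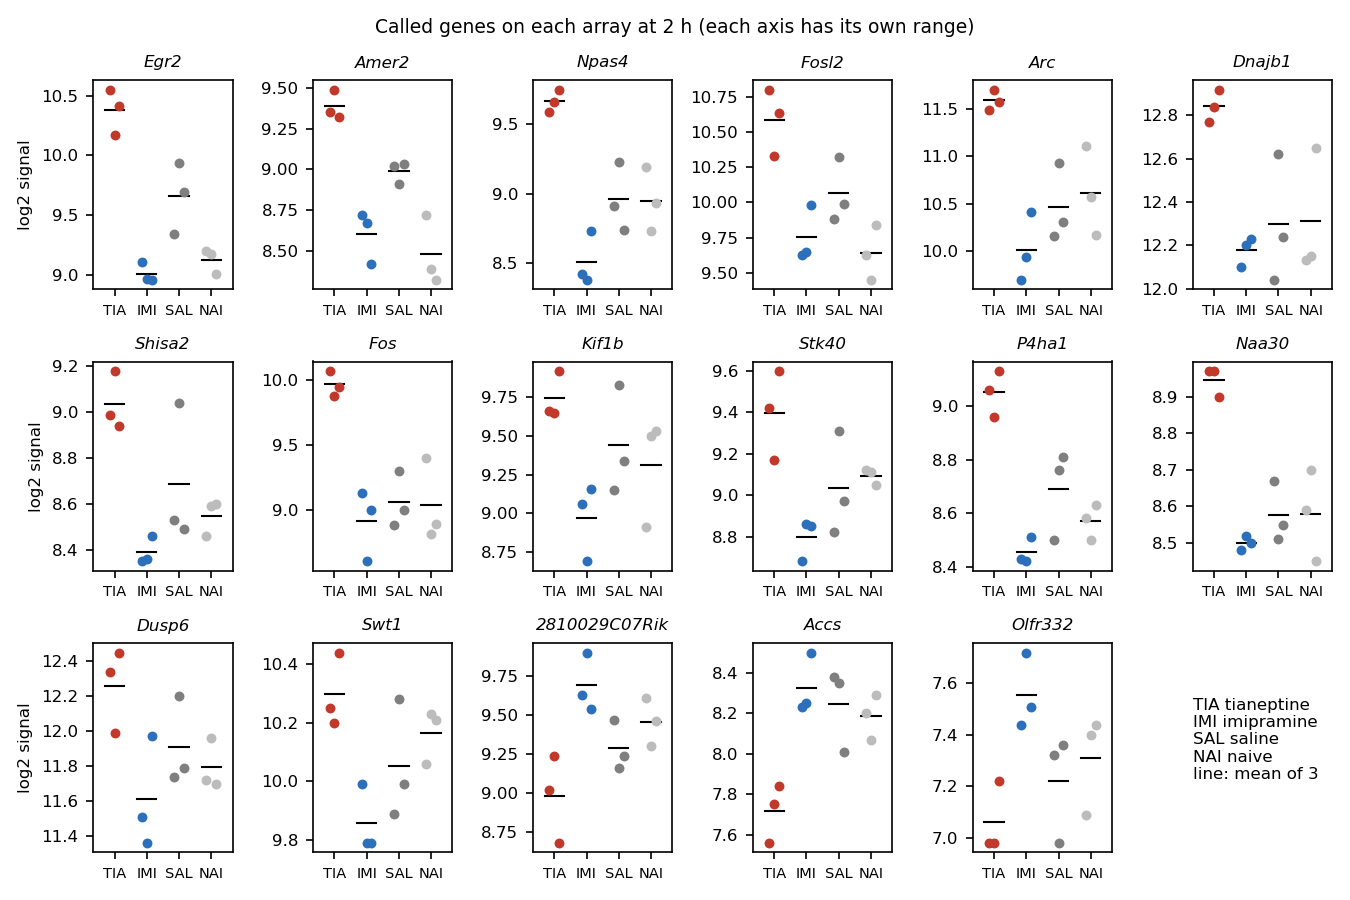
Log2 signal of the 17 called and named genes at 2 h on each array (points) with the mean of 3 (line), for tianeptine (TIA), imipramine (IMI), saline (SAL) and naive (NAI) mice; each panel has its own range. In all 17 the tianeptine and imipramine points do not overlap, as for Egr2 with 10.17 to 10.55 against 8.96 to 9.11.

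The remaining early genes were less uniform. Of 42 listed immediate early genes 39 had a named probe, and 32 of the differences were above 0. This list and those below were written with earlier results of these data known, so their shares describe and do not test. Where a probe of a gene passed in this comparison, it stood for the gene. Of the 39, 15 were higher at an unadjusted p under 0.05 (38.5%, against 3.38% of all probes and 3.52% of the 22134 probes brighter than the median) and 0 were lower, against 2.90% and 2.87%. The median difference was 0.18, where that of all probes was 0. Egr2, Npas4, Fosl2, Arc and Fos passed the adjusted threshold. Without tianeptine replicate 3, 16 of the 39 were higher at an unadjusted p under 0.05, where 2.98% of all probes were higher and 2.84% lower, and the median was 0.26. The mean signal over the 39 was 9.74, 9.69 and 9.65 with tianeptine and 9.34, 9.35 and 9.43 with imipramine, against 9.43, 9.64 and 9.44 after saline.

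Several well-known early genes did not pass. Junb had a difference of 0.86 ± 0.19 (limma, adjusted p = 0.067), Egr4 of 0.80 ± 0.25 (0.411) and Egr1 of 0.51 ± 0.15 (0.293), and in these 3 the groups did not overlap. Per1, a clock gene that is also an immediate early gene, had 11.96, 12.31 and 12.02 with tianeptine and 11.23, 11.58 and 11.36 with imipramine, with a difference of 0.75 ± 0.16 (adjusted p = 0.067). Jun (-0.03), Jund (-0.04), Nr4a1 (0.04), Btg2 (0.01), Homer1 (0.07) and Bdnf (0.18) had differences within 1 SE of 0. The differences of the list ranged from -0.17 to 1.66.

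Feedback inhibitors of MAP kinase signalling were measured by 15 of 16 listed genes. Dusp6, a phosphatase that inactivates ERK, had 12.34, 11.99 and 12.45 with tianeptine and 11.51, 11.36 and 11.97 with imipramine, and was higher by 0.67 ± 0.14 (limma, adjusted p = 0.0385). The lowest tianeptine array was barely above the highest imipramine array, and saline replicate 2, at 12.20, lay between the tianeptine arrays. The call was lost without tianeptine replicate 1 or 3 and without imipramine replicate 1 or 2, with differences of 0.54 to 0.83. Dusp1 (0.62 ± 0.14, adjusted p = 0.0886) and Dusp4 (0.48 ± 0.12, 0.127) did not overlap between the groups and did not pass. Of the 15 genes 6 were higher at an unadjusted p under 0.05 (40.0%, against 3.38% of all probes), 0 were lower (2.90% of all probes), and the median difference was 0.08. Without tianeptine replicate 3, 5 were higher and 1 lower, against 2.98% and 2.84% of all probes, and the median was 0.09. The Sprouty genes Spry2 and Spry4, at -0.15 and 0.08, were not among the 6.

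Glucocorticoid-responsive genes, which corticosterone induces after stress, had mostly positive differences. All 28 listed genes had a probe, and 25 differences were above 0. These members too were chosen with earlier results of these data known, so the shares are no test. Of the 28, 15 were higher at an unadjusted p under 0.05 (53.6%, against 3.38% of all probes and 3.52% of the probes brighter than the median, as all 28 are), 0 were lower, 0 passed the adjusted threshold in limma, and the median difference was 0.27. Without tianeptine replicate 3, 13 were higher at an unadjusted p under 0.05 (2.98% of all probes) and the median was again 0.27. Fkbp5, a co-chaperone of the receptor, had 9.99, 10.17 and 10.28 with tianeptine and 9.65, 9.85 and 9.82 with imipramine, and the difference was 0.41 ± 0.11 (adjusted p = 0.194). Pdk4, a kinase that limits glucose oxidation, differed by 0.50 ± 0.11 (0.103) and Cdkn1a, a cell cycle inhibitor, by 0.50 ± 0.19 (0.622). Plin4, which coats lipid droplets, had the widest difference of the list at 0.86 ± 0.28 (0.483), with 9.34, 9.89 and 9.58 with tianeptine and 8.85, 8.73 and 9.12 with imipramine. The mean signal over the 28 was 10.42, 10.56 and 10.50 with tianeptine and 10.16, 10.19 and 10.36 with imipramine. Saline replicate 1, at 10.57, was as high as the tianeptine arrays, while the other saline arrays had 10.18 and 10.14. Mt1, Angptl4 and Ddit4, all glucocorticoid targets, differed by 0.11, 0.05 and 0.08. Per1 also belongs to the early genes, Dusp1 and Errfi1 to the MAP kinase list, and Pdk4 and Plin4 to the PPAR list.

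**Figure D3:**
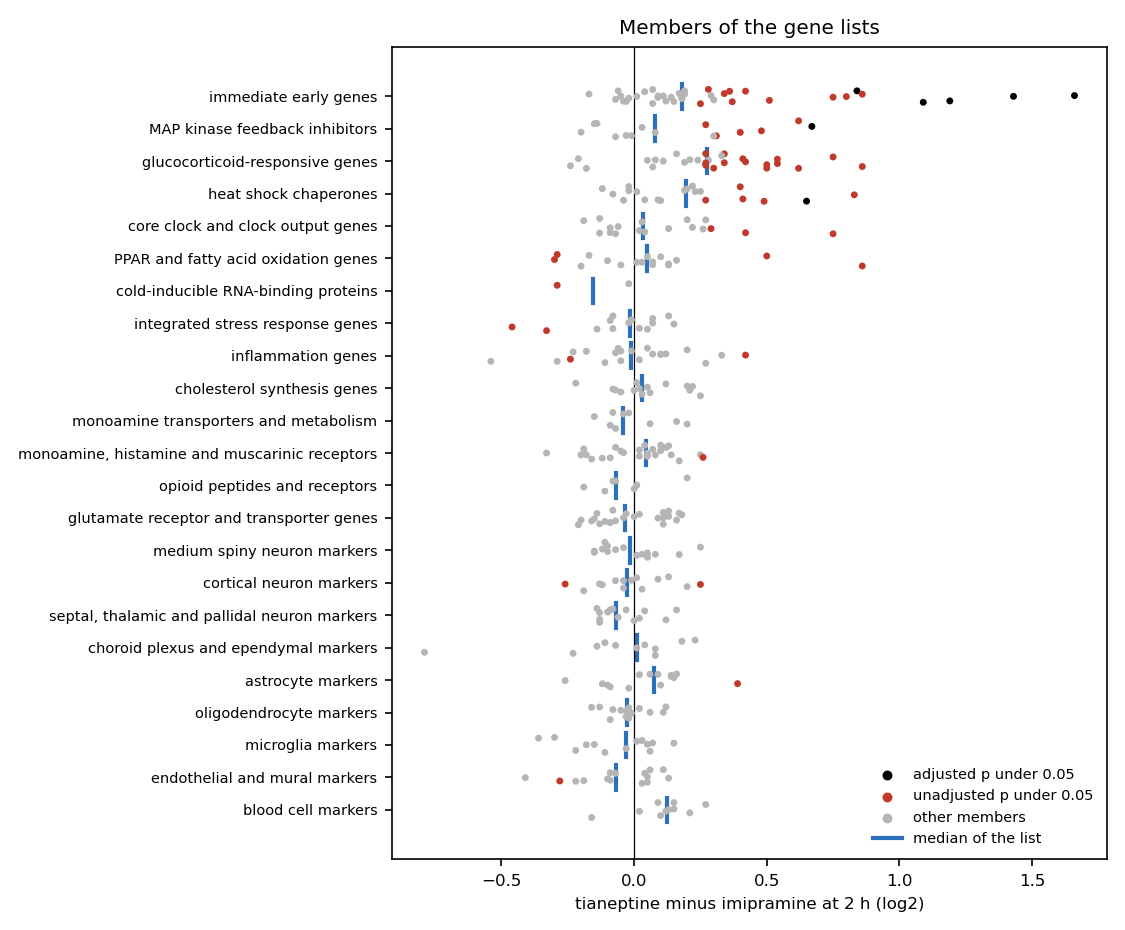
Tianeptine minus imipramine at 2 h (log2, x axis) for each measured member of the 23 gene lists (rows), with the list median as a blue bar. Early, glucocorticoid-responsive and heat shock genes have medians of 0.18, 0.27 and 0.19, and the 9 lists of cell type markers have medians of -0.07 to 0.13.

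Heat shock chaperones were led by Dnajb1, a co-chaperone of Hsp70, with 12.77, 12.84 and 12.92 with tianeptine and 12.10, 12.20 and 12.23 with imipramine. It was higher by 0.65 ± 0.12 (limma, adjusted p = 0.00628), and by 0.62 to 0.68 with 1 array left out. Saline replicate 2 (12.62) and naive replicate 3 (12.65) came near the tianeptine arrays. Hspa1a, the inducible Hsp70, had 8.94, 9.46 and 8.70 with tianeptine and 8.17, 8.26 and 8.40 with imipramine, with a difference of 0.83 ± 0.19 that did not pass (adjusted p = 0.0886). Dimmer Hspa1a probes, at 7.35 and 7.34 on average over all arrays, differed by -0.07 and 0.17. The near-identical copy Hspa1b differed by -0.04, and the probes may not tell both genes apart. Chordc1 and Bag3, co-chaperones of Hsp90 and Hsp70, differed by 0.49 ± 0.14 (0.293) and 0.41 ± 0.12 (0.364), and Bag3 did pass without tianeptine replicate 3, at 0.61. Of 20 measured members 6 were higher at an unadjusted p under 0.05 (30%, against 3.38% of all probes), 0 were lower (2.90% of all probes), and the median was 0.19. Without tianeptine replicate 3, 5 were higher and 0 lower, against 2.98% and 2.84% of all probes, and the median was 0.24. The mean signal over the 20 overlapped between the drugs, with 11.21, 11.16 and 10.75 with tianeptine and 11.01, 10.91 and 10.58 with imipramine. After saline it was 10.78, 10.68 and 11.05. The endoplasmic reticulum chaperones Hspa5 and Hsp90b1 differed by 0.23 ± 0.42 and -0.08 ± 0.13.

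The other 7 higher genes belong to no list. Amer2, which binds the Wnt regulator APC at the membrane, had 9.35, 9.49 and 9.32 with tianeptine and 8.72, 8.67 and 8.42 with imipramine, against 9.02, 8.91 and 9.03 after saline. The fluoxetine arrays of 2 h had 9.27, 9.11 and 9.76, with the same mean as tianeptine (9.38). The difference between tianeptine and imipramine, 0.79 ± 0.12 (limma, adjusted p = 0.000907), had the second smallest p, and Amer2 passed without each array in turn. The brightest Amer2 probe, at 12.84 with tianeptine and 12.41 with imipramine, differed by 0.46 without passing (0.483). Naa30, the catalytic subunit of an amino-terminal acetyltransferase, had 8.97, 8.97 and 8.90 with tianeptine and 8.48, 8.52 and 8.50 with imipramine, and was higher by 0.42 ± 0.088 (0.0385). In both genes the groups were separate. P4ha1, a prolyl hydroxylase of collagen, had 9.06, 8.96 and 9.13 with tianeptine and 8.43, 8.42 and 8.51 with imipramine, and was higher by 0.60 ± 0.12 (0.0385). Shisa2 had 8.99, 9.18 and 8.94 with tianeptine and 8.35, 8.36 and 8.46 with imipramine, and was higher by 0.64 ± 0.13 (0.0301). Saline replicate 2 lay among the tianeptine arrays in Shisa2 (9.04), Kif1b (9.83), Stk40 (9.31) and Swt1 (10.28), and below them in Amer2, Naa30 and P4ha1. Stk40 had 9.42, 9.17 and 9.60 with tianeptine and 8.68, 8.86 and 8.85 with imipramine, and was higher by 0.62 ± 0.13 (0.0385). The brightest Stk40 probe, at 10.82 with tianeptine and 10.56 with imipramine, differed by 0.28 without passing (0.719). Swt1 had 10.25, 10.20 and 10.44 with tianeptine and 9.99, 9.79 and 9.79 with imipramine, and was higher by 0.45 ± 0.094 (0.0385). Both pairs of groups were separate, with the nearest arrays closer in Swt1 than in P4ha1. Kif1b, a kinesin motor of axonal transport, was higher by 0.80 ± 0.16 (0.0376) on a probe of 9.74 with tianeptine and 8.97 with imipramine, but its 2 brightest probes differed by -0.03 and -0.15. Kif1b, P4ha1, Naa30 and Swt1 failed the threshold whichever array was left out, and Shisa2 and Stk40 passed without 1 of the 6 (tianeptine replicate 3 and tianeptine replicate 2). Their differences kept to 0.40 to 0.85 across these 6 genes and 6 arrays.

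The genes lower with tianeptine were few and their functions less known. The transcript 2810029C07Rik had 9.02, 9.24 and 8.68 with tianeptine and 9.63, 9.90 and 9.54 with imipramine, against 9.47, 9.16 and 9.24 after saline, and was lower by 0.73 ± 0.12 (fitted difference -0.73, limma, adjusted p = 0.00259). The call was lost without tianeptine replicate 3 or imipramine replicate 2, where the differences were -0.63 and -0.67. Accs had 7.56, 7.75 and 7.84 with tianeptine and 8.23, 8.25 and 8.50 with imipramine, a difference of -0.59 ± 0.11 (0.0181). Olfr332, an olfactory receptor gene with dim signal, had 6.98, 6.98 and 7.22 with tianeptine and 7.44, 7.72 and 7.51 with imipramine, a difference of -0.52 ± 0.11 (0.0404). With replicate number as a block Olfr332 no longer passed (adjusted p = 0.0537, range over its alternatives 0.0386 to 1), and Accs and Olfr332 each passed with only 1 of the 6 arrays left out, tianeptine replicate 3. The unnamed probe ILMN_1213875 had 8.87, 8.91 and 8.90 with tianeptine and 9.68, 9.28 and 9.33 with imipramine, a difference of -0.55 ± 0.094 (0.00314). The next 7 genes by p did not pass: Naglu (-0.45), Prrt4 (-0.51), Pigz (-0.43), Abcg2 (-0.55), Tipin (-0.48), 1700093K21Rik (-0.61) and Tab1 (-0.38), with adjusted p of 0.113 to 0.154. None of these 10 named genes is in a list. Among stress genes of the ATF4 pathway, Chac1 (-0.33) and Trib3 (-0.46) were the 2 of 14 with an unadjusted p under 0.05, both negative. Over all probes 2.90% were lower at that p.

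The values of both drugs against saline at 2 h are given as a description, since the 17 genes were chosen for a wide difference between the drugs and another group would tend to fall between them. No chip held an array of either drug together with a saline array of that time. Both differences below use the same 3 saline arrays and so are not independent. For Egr2 tianeptine minus saline was 0.74 and imipramine minus saline -0.69, for Amer2 0.40 and -0.39, and for Kif1b 0.34 and -0.45. For Arc the values were 1.25 and -0.41, for Npas4 0.73 and -0.45, for Fos 0.97 and -0.12 and for Dnajb1 0.51 and -0.14. In the first 3 genes the imipramine side was thus about as wide as the tianeptine side, and in Fos and Dnajb1 it was much narrower. None of the 17 genes passed in either comparison with saline: limma called 2 of 45281 probes for tianeptine (0.00442%) and 0 for imipramine (0%), where 1965 and 1554 had an unadjusted p under 0.05. Against naive mice limma called 44 of 45281 probes for tianeptine (29 higher, 15 lower) and 0 for imipramine. Of the 17 genes only Egr2 (limma, adjusted p = 0.00264), Amer2 (0.000152) and Fosl2 (0.00106) passed there, all with tianeptine. Naive mice had no injection, so drug and injection cannot be told apart in that comparison. For 2810029C07Rik the 2 values were -0.35 and 0.39, for Accs -0.49 and 0.10 and for Olfr332 -0.15 and 0.38. The immediate early list had medians of 0.10 and -0.10, and the glucocorticoid-responsive list 0.21 and -0.06.

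**Figure D4:**
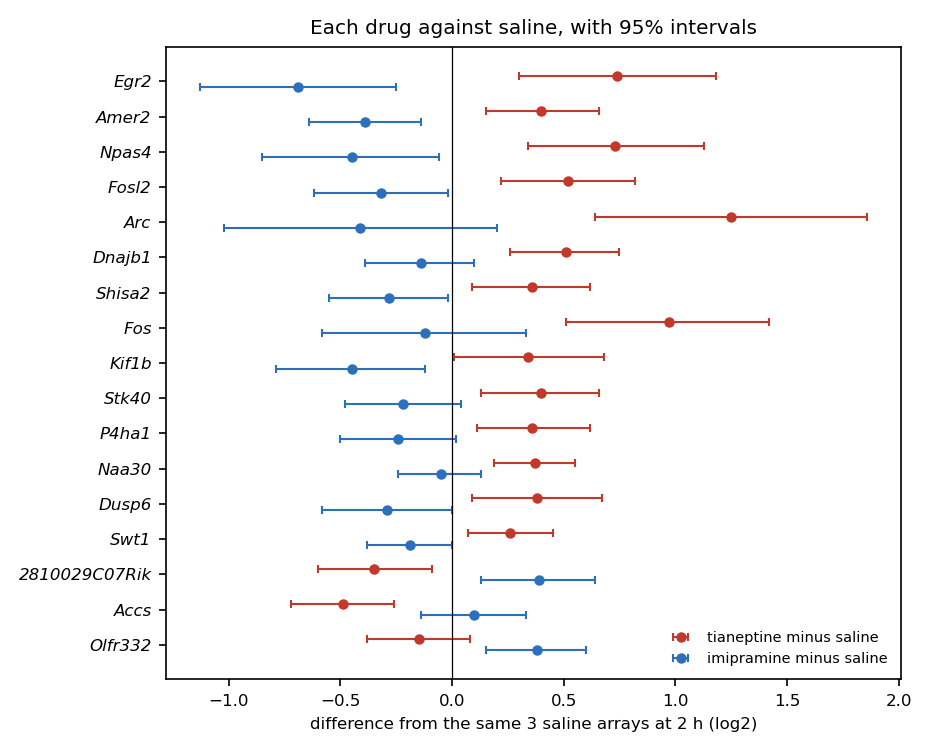
Difference of each drug from the same 3 saline arrays at 2 h (log2, x axis) with 95% intervals, tianeptine (red) above imipramine (blue) in each row, for the 17 called and named genes. The 14 higher genes lie right of 0 with tianeptine and left of 0 with imipramine, as Egr2 does at 0.74 and -0.69.

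At the other times fewer probes were called, and most of the genes named here had smaller differences. The called genes were picked by their p at 2 h, so that smaller differences at other times follow in part from that choice. At 1 h limma called 1 probe of 45281 (0.00221%), Npas4, with a difference of 1.18 (adjusted p = 0.00453), close to its 1.19 at 2 h. At 4 h it called 2 (0.00442%), 1 of them Cirbp, a cold-inducible RNA-binding protein, at -0.69 (0.0393), where Cirbp had -0.29 at 2 h. At 8 h it called 0 (0%), with 2233 at an unadjusted p under 0.05. Egr2 had 0.60, 1.43, 0.78 and -0.72 at 1, 2, 4 and 8 h, Arc 1.15, 1.66, 0.69 and -0.32, and Fos 0.98, 1.09, 0.78 and -0.57. Fosl2 had 0.66, 0.84, 0.67 and 0.10 at these times, and Amer2 0.54, 0.79, 0.36 and -0.04. All 5 had their highest difference at 2 h, the time at which they were picked, and their lowest at 8 h. Set against the mean difference of the other 3 times, the difference at 2 h was called for 0 probes (0%), with 2226 at an unadjusted p under 0.05. For Egr2 this contrast was 1.21 ± 0.25 (adjusted p = 0.421), and no difference was shown to be particular to 2 h. The medians of the immediate early list were 0.15, 0.18, 0.18 and 0.01 at 1, 2, 4 and 8 h. Those of the glucocorticoid-responsive list were 0.17, 0.27, 0.13 and 0.12. For heat shock chaperones they were 0.09, 0.19, 0.24 and 0.10, and for MAP kinase feedback inhibitors 0.09, 0.08, 0.18 and 0.04, both highest at 4 h.

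**Figure D5:**
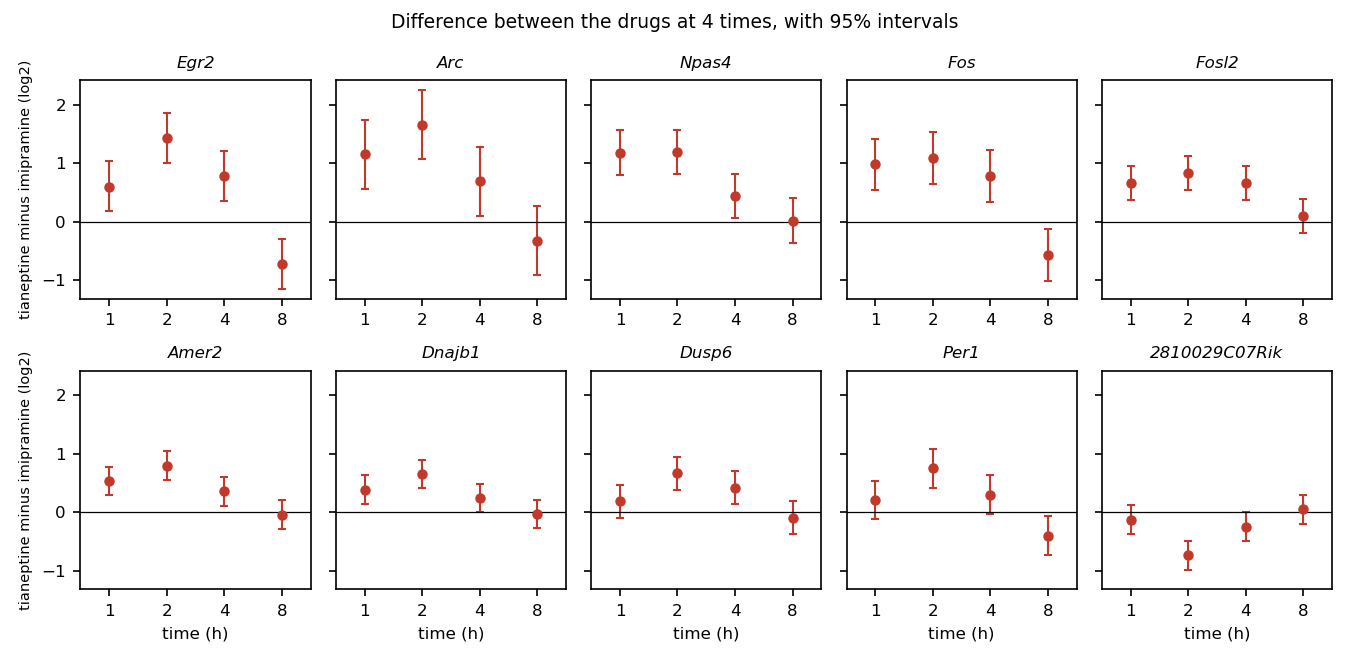
Tianeptine minus imipramine (log2, y axis, shared) at 1, 2, 4 and 8 h (x axis, not to scale) with 95% intervals for 10 genes. Early genes are above 0 at 1 to 4 h and near or below 0 at 8 h, as Egr2 is with 0.60, 1.43, 0.78 and -0.72.

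None of the measured drug targets passed the threshold. The serotonin transporter Slc6a4 differed by -0.02 ± 0.11, the norepinephrine transporter Slc6a2 by 0.20 ± 0.13, the histamine receptor Hrh1 by -0.19 ± 0.14 and the mu opioid receptor Oprm1 by -0.07 ± 0.11, all on probes of dim signal (7.18 to 7.64 on average over all arrays). Drd1 differed by 0.05 ± 0.15 and Drd2 by -0.07 ± 0.14. Of 26 monoamine, histamine and muscarinic receptor genes only Htr1b, a serotonin receptor, had an unadjusted p under 0.05 (0.26 ± 0.12, limma, adjusted p = 0.751). That is 3.85% of the list higher, against 3.38% of all probes. The 7 opioid genes and the 9 monoamine transporter and metabolism genes had 0 members at an unadjusted p under 0.05 in either direction, with medians of -0.07 and -0.04.

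The 9 lists of cell type markers had at most 1 member per direction at an unadjusted p under 0.05, where 3.38% of all probes were higher and 2.90% lower. Their median differences were -0.01 for medium spiny neurons (-0.23 to 0.08 over the alternatives), -0.03 for cortical neurons, -0.07 for septal, thalamic and pallidal neurons, 0.07 for astrocytes, -0.02 for oligodendrocytes, -0.03 for microglia, -0.07 for endothelial and mural cells and 0.13 for blood cells. Without tianeptine replicate 3 the 9 medians were -0.10 (medium spiny neurons) to 0.25 (blood cells). The mean signal of the medium spiny neuron markers was 12.52 to 12.75 with tianeptine and 12.42 to 12.80 with imipramine. Ttr, which encodes transthyretin and is made in the choroid plexus, had 10.64, 10.44 and 11.11 with tianeptine and 10.91, 10.73 and 13.76 with imipramine. Imipramine replicate 3 alone stood far above the others, and the difference was -0.79 ± 1.2 (limma, adjusted p = 0.979). The choroid plexus and ependymal list had a median of 0.01. Core clock and output genes, 18 in number, had a median of 0.04. Per1, Per2 and Bhlhe40 were the 3 with an unadjusted p under 0.05, all higher (16.7%, against 3.38% of all probes). The medians of the remaining lists were 0.05 for PPAR and fatty acid oxidation genes, 0.03 for cholesterol synthesis, -0.02 for the 14 stress genes of the ATF4 pathway, -0.01 for inflammation, -0.04 for glutamate receptors and transporters and -0.15 for the 2 cold-inducible genes, Cirbp and Rbm3. A further Rbm3 probe had a difference of 0.46 (adjusted p = 0.0785), against -0.02 for the one in the list. None of their members passed the adjusted threshold.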

How the data were processed

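Striatal RNA was measured on Illumina MouseWG-6 arrays, 60 in all. The deposited values used were the authors' log2 signals before normalisation (BeadStudio, BeadArray). The study's methods name background subtraction as a step before normalisation, but the sources used here do not state whether this table had it. The values were quantile normalised, and 20 group means were fitted with limma 3.58.1 (R 4.3.3), with chip as a random block (correlation 0.201). P-values were Benjamini-Hochberg adjusted over 45281 probes, with a threshold of 0.05. Of the probes 34885 had 1 gene symbol, 18 several and 10378 none. Genes were named by rule: those called, the next by p where under 10 passed in a direction, up to 6 members by p of each of 23 lists, and the drug targets; other list members named were chosen after their values were seen. Members and lists were chosen with earlier results of these data known. Of several probes of a gene, the brightest that passed, or else the brightest, stands for it. Replicates were pools of 2 mice, and nothing in the labels says more of their independence. Replicate numbers come from the sample titles. Deviations from the group means of same-numbered arrays correlated at 0.50, 0.26 and 0.42, so the numbers may pair the arrays. The main fit had no replicate term, and its SEs and p-values do not use that pairing. A fit with replicate number as a block is given as an alternative. Alternatives changed the normalisation, the chip term, the arrays fitted, the filter and the replicate block. With 3 arrays per group, the array number bounds what can be resolved.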

Additional observations from a re-analysis of the deposited data

Results flagged for a closer look

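Of the 69 probes named by rule, 45 did not overlap between the drugs at 2 h, and of all 45281 probes 3949 did not. Many of the 69 were named for a small p in this comparison, which favours separate groups. For 4 of the 45 (8.89%) every tianeptine array lay on one side of every imipramine array at 2 h and on the opposite side at another time. Over all probes this held for 436 of 3949 (11%), so that the share among the named probes was near the background. The difference between 2 h and that single time was not tested. The difference at 2 h against the mean of the other 3 times was tested in limma and passed for none of the 4. Abcg2, a membrane transporter, had a difference of -0.55 at 2 h and 0.21 at 4 h (contrast of 2 h with the other times -0.68 ± 0.15, adjusted p = 0.452). Per1 had 0.75 at 2 h and -0.40 at 8 h (contrast 0.72 ± 0.19, adjusted p = 0.771). Neurod6, a cortical neuron marker, had 0.25 at 2 h and -0.14 at 8 h (contrast 0.29 ± 0.13, adjusted p = 0.997). Pdgfrb, a marker of pericytes, had -0.28 at 2 h and 0.31 at 8 h (contrast -0.34 ± 0.13, adjusted p = 0.988). The probes of Abcg2 and Neurod6 were dim, at 7.11 and 7.16 on average over all arrays, against 7.57 for the median probe.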

How the results depend on the processing

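All 18 called probes kept their direction under every alternative that tested them. This says little, since the groups did not overlap in any of the 18 and the alternatives reuse these arrays. Their number fell to 5 with median centring, 6 without a chip term, 6 with the 2 h arrays alone, 3 with the 6 arrays alone and 0 with z-scores within chips (3514 at an unadjusted p under 0.05). An equal-variance t-test per probe between the drugs also gave 0 (1910 unadjusted). The study's methods name Student's t-test as a term of a gene score. Their analysis of variance with drug and time as factors was not run here. It was 38 when only probes brighter than the median were tested (31 higher, 7 lower), 23 with chip as a fixed block and 18 on the authors' normalised values. Leaving out 1 array gave 4 to 14. The cause was not tested. With replicate number as a block 19 probes passed, 17 of them among the 18, and only Olfr332 lost its call. The contrast of 2 h with the other times gave 0 probes without a chip term and with the replicate block too. The list medians ranged over the alternatives from 0.16 to 0.30 for early, 0.24 to 0.38 for glucocorticoid-responsive, 0.06 to 0.26 for heat shock and 0.02 to 0.17 for MAP kinase feedback genes. Without detection values, what signal over background limits is unknown for dim probes such as Olfr332.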

Other observations

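Some genes had wide values within groups. Stk32c, a kinase gene, had 10.86, 11.67 and 9.22 with tianeptine and 11.50, 11.54 and 11.11 with imipramine (difference -0.77 ± 0.50, limma, adjusted p = 0.89). Replicate 3 was the low one with tianeptine, and was also low after saline (9.84) and in naive mice (9.41). Ttr, a choroid plexus marker, had 10.75, 13.74 and 15.40 after saline and 11.70, 14.49 and 11.77 in naive mice.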
